A study of Ovis aries with 13 samples.

Results

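Collagens, the gene of a latent TGF-beta binding protein, a matrix protease and a protease inhibitor were followed across birth in the left ventricle of the sheep heart. The genes were COL3A1, COL4A1, COL16A1, LTBP4, MMP2 and TIMP1. They are 6 of the 842 genes that could be named on the array, and were measured by 12 of the 15008 non-control probes, and all 12 were among the 10257 that were bright enough to test. The gene names and RefSeq identifiers in the files pointed to 8 of these probes and to only 3 of the genes: COL3A1, MMP2 and TIMP1. The other 4 probes, 1 each for COL3A1, COL4A1, COL16A1 and LTBP4, were found only by a description in the files of similarity to a protein of cattle (COL3A1), mouse (COL4A1) or dog (COL16A1 and LTBP4). For COL4A1, COL16A1 and LTBP4 every value below therefore rests on a probe named by that description.

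Each array held total RNA from the left ventricle of 1 animal. The newborn group had 7 lambs at postnatal day 1 (4 females and 3 males), and the fetal group had 6 fetuses at gestational day 142 (2 females and 4 males). The labels name no treatment, strain or genetic change in either group, and the other heart regions and the further fetus of the design text were not analysed here. Among the animal numbers of the labels, 5 newborn and 4 fetal animals share theirs with another of the group, and the labels do not explain it.

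Fibrillar collagens such as type III, which is built from 3 copies of the COL3A1 chain, form the fibre network between heart muscle cells. Type IV collagen, whose most common form joins COL4A1 with COL4A2, is a sheet-forming collagen of basement membranes, including those around capillaries and muscle cells. LTBP4 binds latent TGF-beta in the matrix and takes part in building elastic fibres. MMP2 is a secreted protease that cleaves denatured collagen and type IV collagen, and TIMP1 is a secreted inhibitor of such proteases. COL16A1 is a minor collagen that associates with fibrils.

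The probes are 60 bases long, and those on which the results turn are shown to make clear what each one read. In a collagen triple helix glycine recurs once in every 3 amino acids, so a probe from that region holds a glycine codon (GG followed by any base, GGN) once in every 3 codons of 1 reading frame. This repeat was searched on the probe strand alone, in all 3 frames. It ran through the COL4A1 probe with 7 glycine codons, through COL3A1 probe 1 with 7 and through COL3A1 probe 4 with 6, which are in capitals here. Of the 15008 probes, 24 (0.16%) held it from end to end. All are written 5′ to 3′ as the files give them, and the files mark no genome position for them.
COL4A1: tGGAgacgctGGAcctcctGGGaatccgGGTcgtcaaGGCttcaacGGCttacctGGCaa
COL3A1 probe 1: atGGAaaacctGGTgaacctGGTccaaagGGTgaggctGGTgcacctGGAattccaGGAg
COL3A1 probe 4: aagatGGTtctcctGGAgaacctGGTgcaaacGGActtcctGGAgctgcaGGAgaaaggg

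COL3A1 probes 2 and 3 lie outside that repeat and cover nearly the same stretch, with 58 bases in common, shown in capitals.
COL3A1 probe 2: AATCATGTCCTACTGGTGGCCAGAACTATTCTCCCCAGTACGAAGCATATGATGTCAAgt
COL3A1 probe 3: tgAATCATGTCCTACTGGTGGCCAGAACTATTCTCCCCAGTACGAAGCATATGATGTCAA
The probes of LTBP4 and MMP2, which gave the smallest p-values, follow with no part marked. The 3 MMP2 probes read separate stretches.
LTBP4: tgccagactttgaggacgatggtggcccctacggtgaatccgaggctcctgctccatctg
MMP2 probe 1: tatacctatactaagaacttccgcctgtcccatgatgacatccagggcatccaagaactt
MMP2 probe 2: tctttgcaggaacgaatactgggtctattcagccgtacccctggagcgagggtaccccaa
MMP2 probe 3: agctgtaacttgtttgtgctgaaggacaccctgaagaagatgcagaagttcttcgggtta
The 2 TIMP1 probes share 59 bases, so they are close to a single measurement. Both hold AATAAA, as do 845 (5.63%) of all probes on this strand.

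Values are log2 processed signal minus the 75th percentile of the array, here called scaled signal, so that 0 is the signal of a probe at that percentile. On the 13 arrays that percentile lay between 219 and 367 intensity units, which was 8.77 to 13.6 times the median background. Precision is limited by the number of arrays. On the first principal component, with 36.8% of the variance, 6 newborn arrays lay between 10.08 and 35.1, newborn 6 at -8.997, and the fetal arrays between -29.1 and -20.4. The arrays lay on 2 slides, each with both groups. Newborn and fetal values were compared with limma, and p-values were adjusted by the Benjamini-Hochberg method over all 10257 probes, with a threshold of 0.05. Animals that share a number differ by a letter in the labels, which do not say what number or letter means. The main p-values treat the 13 arrays as independent and measure the spread between these samples.

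Transcripts of LTBP4, MMP2 and COL4A1 were lower in the newborn ventricle than in the fetal ventricle, and those of TIMP1 were higher. COL3A1 passed with 1 of its 4 probes, and COL16A1 did not pass. In all, 8 of the 12 probes passed the test, 6 lower and 2 higher in newborns. Over all tested probes 23.1% passed, 11.1% lower and 12% higher, and 37.8% had an unadjusted p under 0.05. The 8 probes are not 8 separate results, since 3 belong to MMP2 and 2 to TIMP1. The 6 genes were chosen with earlier results of these data known, so the count describes them only. In bulk tissue, fewer cells of a type and less RNA per cell cannot be told apart.

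**Figure D1:**
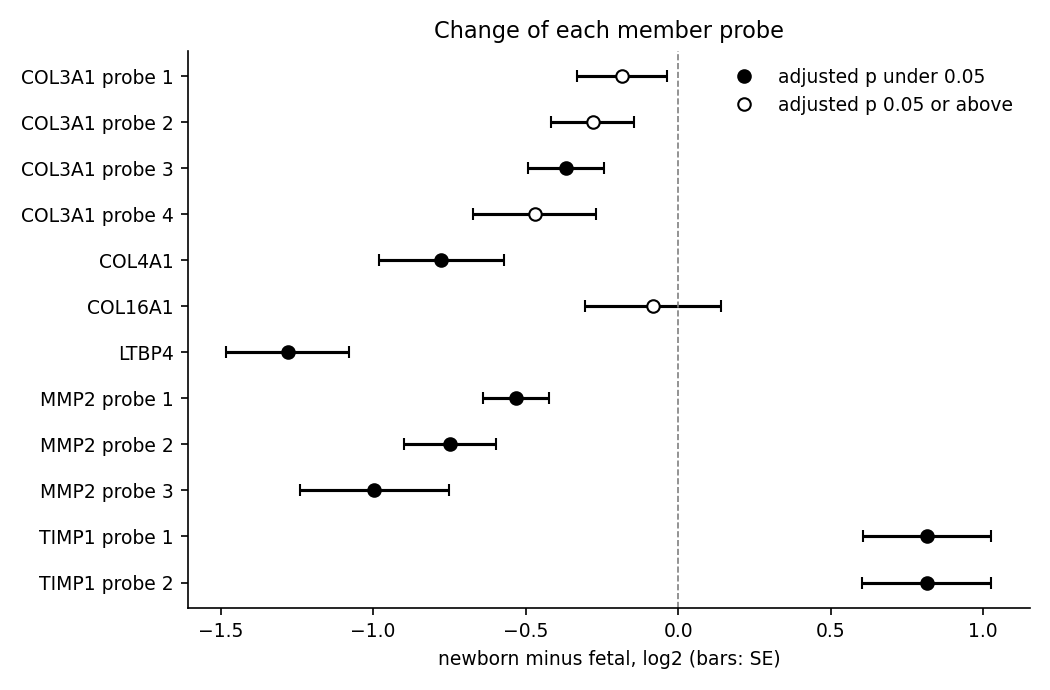
Newborn minus fetal difference of each of the 12 probes (x axis, log2 scaled signal), with bars of 1 SE of the limma fit. Filled points have an adjusted p under 0.05. LTBP4 lies farthest to the left at -1.28, the 3 MMP2 probes lie between -0.995 and -0.53, and both TIMP1 probes lie near 0.82.

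LTBP4, the latent TGF-beta binding protein, showed the largest difference of the 12 probes. Its scaled signal was 0.32 at the lowest, 0.47 at the median and 1.56 at the highest in the 7 newborns, against 1.68, 2.11 and 2.42 in the 6 fetuses. Every newborn array lay below every fetal array, and the newborn array nearest to the fetal range was newborn 6. LTBP4 averaged 0.756 ± 0.460 in newborns (SD, n = 7) and 2.04 ± 0.294 in fetuses (SD, n = 6). It fell by 1.28 on the log2 scale (SE 0.201, limma, adjusted p = 0.00122), 2.43-fold, and ranked 121 of the 10257 probes by p. The difference was -1.30 within slide 1 (adjusted p = 0.0144) and -1.41 within slide 2, where it did not pass (adjusted p = 0.144).

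**Figure D2:**
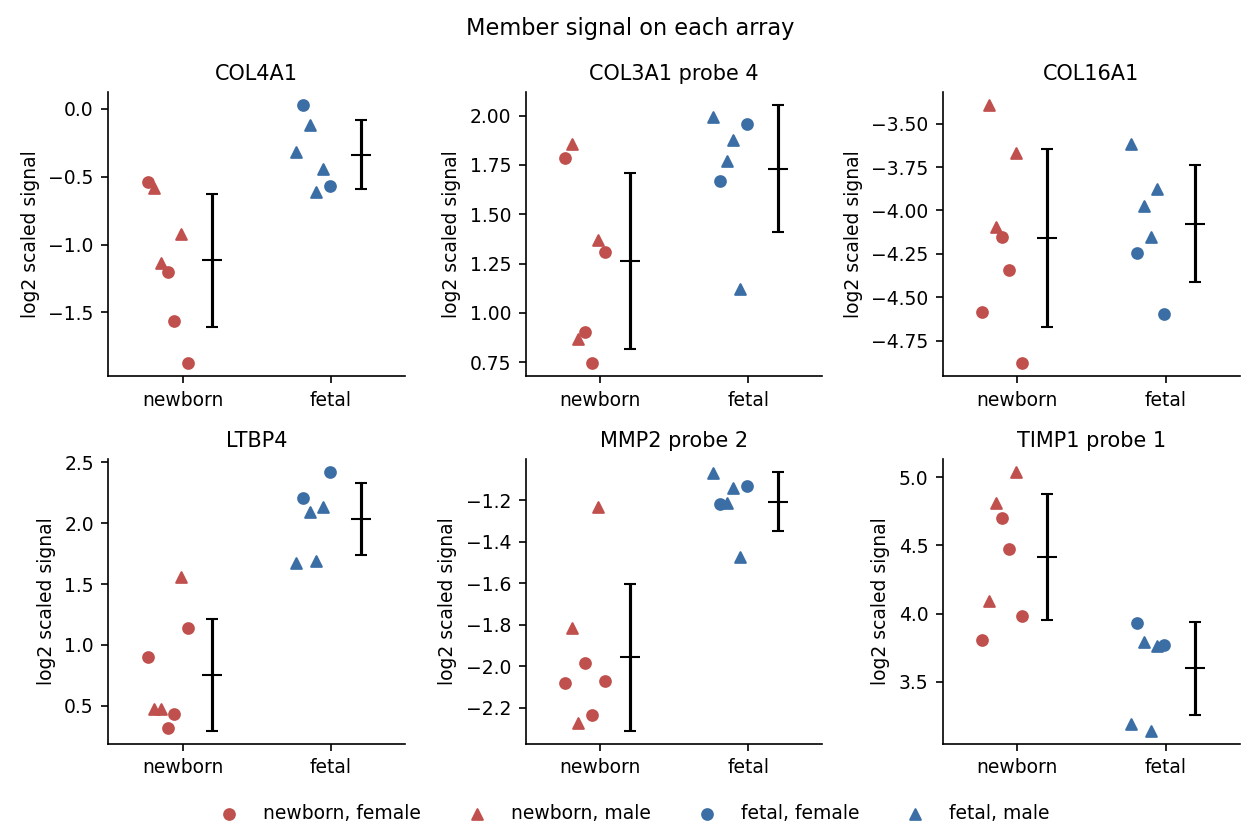
Scaled signal (y axis, log2) on each of the 13 arrays for the brightest probe of each gene, newborn at the left and fetal at the right of each panel. Circles are females, triangles are males, and the bar to the right of each group is the mean with the SD. LTBP4 has no overlap between the groups, and the groups of COL16A1 overlap.

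MMP2, the type IV collagen-cleaving protease, was lower in newborns by all 3 of its probes. The brightest, probe 2, ran from -2.28 over a median of -2.07 to -1.23 in newborns, against -1.48, -1.18 and -1.07 in fetuses. The newborn arrays lay below the fetal ones apart from newborn 6, whose -1.23 was within the fetal range. Probe 2 averaged -1.96 ± 0.354 in newborns (SD, n = 7) and -1.21 ± 0.142 in fetuses (SD, n = 6), and fell by 0.75 (SE 0.150, limma, adjusted p = 0.00392). The size depended on the processing and source. The difference was -0.33 in the series matrix (adjusted p = 0.00119). It was -0.42 with normexp on the median background of each array (adjusted p = 0.00318). With normexp on the background of each spot it was -0.40 and did not pass (adjusted p = 0.588). Both normexp runs added an offset of 50 intensity units, and the processed signal of this probe was 55.4 to 158. Such an offset narrows log2 differences of dim probes, and its share here was not tested.

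MMP2 probe 1 did not overlap, with -2.19, -1.89 and -1.56 as lowest, median and highest in newborns, against -1.45, -1.39 and -1.23 in fetuses. It fell by 0.53 (SE 0.109, adjusted p = 0.0043), and the difference was -0.26, -0.30 and -0.29 under the same 3 alternatives (adjusted p = 0.0101, 0.0194 and 0.745). It and LTBP4 were the 2 probes of the 12 whose groups did not overlap, a pattern that 6.89% of all probes showed in either direction, 3.51% with newborns lower and 3.38% with newborns higher. MMP2 probe 3 was the dimmest of the 3 and was well above background on 6 of 7 newborn and all 6 fetal arrays. Its scaled signal was -4.48, -3.82 and -2.90 in newborns, against -3.15, -2.79 and -2.57 in fetuses. It differed by -0.995 (SE 0.243, adjusted p = 0.0105), and the difference was -0.26 with normexp on the array background (adjusted p = 0.0935) and -0.33 with normexp on each spot (adjusted p = 0.917), neither of which passed. Across arrays the probes moved together, with Pearson r of 0.653 to 0.802 between their deviations from the group means over 13 arrays.

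Within slides, MMP2 probe 2 fell by 0.90 on slide 1 (adjusted p = 0.0216) and by 0.58 on slide 2, where it did not pass (adjusted p = 0.315). Probe 1 passed on neither slide, at -0.60 (adjusted p = 0.0903) and -0.45 (adjusted p = 0.206).

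TIMP1, the secreted inhibitor of such proteases, was the only gene of the 6 that was higher in newborns. Probe 1 ran from 3.80 over a median of 4.47 to 5.04 in newborns, against 3.14, 3.77 and 3.93 in fetuses. All newborn arrays except newborn 1 lay above every fetal array. TIMP1 probe 1 averaged 4.41 ± 0.464 in newborns (SD, n = 7) and 3.60 ± 0.343 in fetuses (SD, n = 6), and rose by 0.82 (SE 0.210, limma, adjusted p = 0.0136), 1.76-fold. Probe 2 rose by 0.81 (SE 0.211, adjusted p = 0.0141), and its deviations followed those of probe 1 with r = 0.969. Within slide 1 probe 1 was 0.72 higher (adjusted p = 0.18) and within slide 2 it was 0.78 higher (adjusted p = 0.2), and neither passed. With normexp on each spot it was 0.85 higher and did not pass (adjusted p = 0.333).

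COL4A1, a chain of basement membrane collagen, was lower in newborns. Its scaled signal was -1.87, -1.14 and -0.54 in newborns, against -0.62, -0.38 and 0.03 in fetuses. Of the 7 newborn arrays 5 lay below every fetal array, and newborns 1 and 2 lay within the fetal range. COL4A1 averaged -1.12 ± 0.490 in newborns (SD, n = 7) and -0.34 ± 0.254 in fetuses (SD, n = 6), and fell by 0.78 (SE 0.204, limma, adjusted p = 0.0152), 1.71-fold. The probe was also 0.47 lower on slide 2 than on slide 1 with age in the model (adjusted p = 0.869 in limma). Within slide 1 the age difference was -0.49 (adjusted p = 0.202) and within slide 2 it was -0.88 (adjusted p = 0.166), and neither passed. It was -0.46 in the series matrix (adjusted p = 0.015) and -0.56 with normexp on each spot, where it did not pass (adjusted p = 0.265).

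COL4A2, the partner chain of COL4A1, was read by a probe that the files describe by similarity to a dog protein, and it also fell. It averaged -2.19 ± 0.405 in newborns (SD, n = 7) and -1.58 ± 0.182 in fetuses (SD, n = 6), a fall of 0.62 (SE 0.170, limma, adjusted p = 0.0185). After subtraction of each group's mean, COL4A2 had the highest r with COL4A1 of 555 genes compared, 0.88 over 13 arrays, and KDR, a receptor for VEGF on endothelial cells, came next at 0.78. The arrays share their RNA and scaling between all probes, so these r values are descriptions. The COL4A2 probe also holds the glycine repeat from end to end, with 7 glycine codons as in the COL4A1 probe. The part of this shared repeat in the r or in the fall of COL4A2 was not tested.

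**Figure D3:**
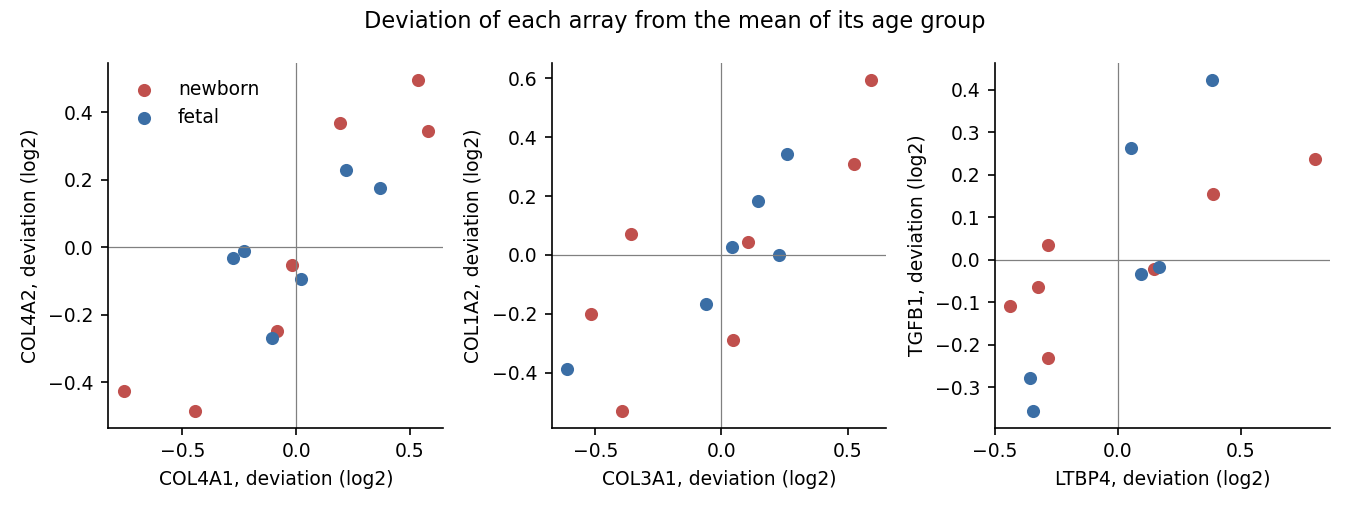
Deviation of each array from the mean of its age group (both axes, log2 scaled signal) for COL4A1 against COL4A2, COL3A1 against COL1A2 and LTBP4 against TGFB1, with newborn arrays in red and fetal arrays in blue. Points are the 13 arrays, and r is 0.88, 0.81 and 0.75 from left to right. Each pair was picked as the highest r of 555 genes compared, and the highest pairs of COL16A1, MMP2 and TIMP1 are not drawn.

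Of 5 tested endothelial marker genes 3 fell: FLT1 by 0.82 (adjusted p = 0.001), PECAM1 by 0.51 (adjusted p = 0.00869) and KDR by 0.46 (adjusted p = 0.0233). The other 2 did not pass, NOS3 at 0.20 (adjusted p = 0.404), named after its value was seen, and the last at -0.09 (adjusted p = 0.671). The summed scaled signal of the 5 markers was 4.47 to 6.99 in newborns and 6.09 to 7.81 in fetuses. On the log2 scale PECAM1 averaged 1.98 in newborns and 2.49 in fetuses, against -0.98 and -0.52 for KDR, so the sums are mostly PECAM1. The part of the markers in the COL4A1 result was not tested.

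COL3A1, the fibrillar collagen chain, was lower in the newborn mean by each of its 4 probes, and only probe 3 passed. Probe 3 had 0.313 ± 0.240 in newborns (SD, n = 7) and 0.679 ± 0.190 in fetuses (SD, n = 6), and fell by 0.37 (SE 0.125, limma, adjusted p = 0.047). Its groups overlapped, with 4 of 7 newborn arrays below every fetal array. Probe 2, which shares 58 of its 60 bases, gave -0.28 (SE 0.135, adjusted p = 0.143).

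The brightest probe of COL3A1, probe 4, ran from 0.74 over 1.31 to 1.86 in newborns, against 1.12, 1.82 and 1.99 in fetuses. It differed by -0.47 (SE 0.202, adjusted p = 0.105) and probe 1 by -0.19 (SE 0.147, adjusted p = 0.374). The probe 3 call was lost in 18 of 27 alternative settings, with adjusted p up to 0.493, and it was kept in 4 of the 13 settings that left out 1 array. Between the 4 probes, r ran from 0.618 to 0.940 over 13 arrays.

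COL16A1 did not differ detectably between the ages. Its signal was dim, well above background on 4 of 7 newborn and 5 of 6 fetal arrays. It ran from -4.88 over -4.16 to -3.39 in newborns, against -4.60, -4.06 and -3.62 in fetuses, and the groups overlapped. The difference was -0.08 (SE 0.223, limma, adjusted p = 0.814), and its sign changed in 5 alternative settings.

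Sex was examined with age in the model, and none of the 12 probes passed. Over all probes 0.00975% passed, a single probe, and 3.23% had an unadjusted p under 0.05. COL16A1 had the smallest unadjusted p of the 12, with females lower than males by -0.66 (SE 0.157, limma, adjusted p = 0.999). In newborns its females averaged -4.49 (n = 4) and its males -3.72 (n = 3), and in fetuses its females averaged -4.42 (n = 2) and its males -3.91 (n = 4). Of the 4 arrays where COL16A1 was not well above background, 3 were of newborn females, so part of this difference was measured near background.

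The age difference of no member differed between the sexes after adjustment, and 0% of all probes passed that test in limma; 4.94% of them were under 0.05 before adjustment. The smallest adjusted p of the 12 was 0.977, for TIMP1 probe 1. In females it averaged 4.24 in newborns (n = 4) and 3.85 in fetuses (n = 2), and in males 4.65 in newborns (n = 3) and 3.47 in fetuses (n = 4). The age difference in females minus that in males was -0.79 (SE 0.413). With 2 fetal females, the design leaves this comparison imprecise.

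Other genes of matrix structure, remodelling and signalling were described by lists. Of 176 genes in 10 such lists, 39 had a tested probe, of which 3 rose, 5 fell and 31 did not pass, and the list of collagen assembly genes had none on the array. The 20.5% that passed stands beside 24.3% of the 556 named genes tested. Without the 6 members, 2 of 33 rose, 2 fell and 29 did not pass (12.1% passed), with a median difference of -0.05, against 0.10 over the 556 named genes by their brightest probes and 0.03 over all tested probes. The lists were chosen with earlier results of these data known, so the counts describe them only.

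**Figure D4:**
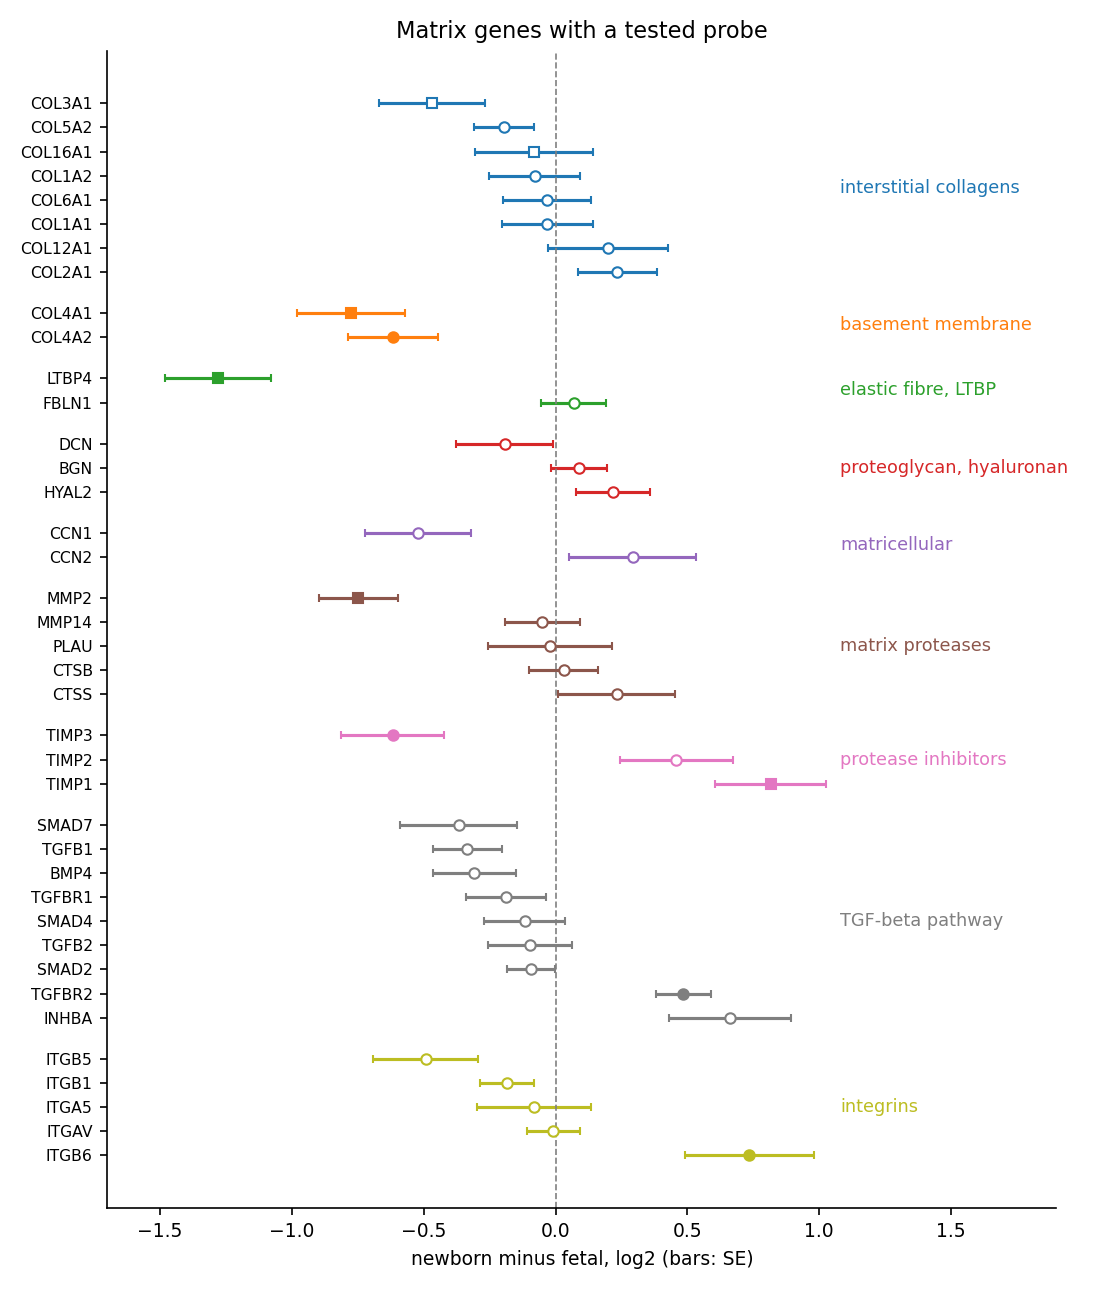
Newborn minus fetal difference (x axis, log2 scaled signal) with bars of 1 SE for each matrix gene with a tested probe, by its brightest probe. Squares are the 6 genes described above, circles are other genes, filled symbols have an adjusted p under 0.05, and colours mark the lists. The interstitial collagens lie between -0.47 and 0.23.

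None of the 8 tested interstitial collagen genes passed by its brightest probe, COL3A1 and COL16A1 included. COL1A2, a chain of type I collagen, differed by -0.08 (SE 0.172, adjusted p = 0.766) and COL1A1, named after its value was seen, by -0.03 (SE 0.172, adjusted p = 0.909). Within groups COL1A2 had the highest r with COL3A1 among 555 genes, 0.81 over 13 arrays, followed by PPARGC1A, a coactivator of mitochondrial genes, at 0.80. The COL1A2 probe holds the glycine repeat from end to end with 6 glycine codons, as COL3A1 probe 4 does. The part of this shared repeat in the r was not tested. Fibroblast markers were mixed: of 5 tested, S100A4 rose by 1.77 (adjusted p = 0.000775) and 4 did not pass. Their summed scaled signal was 124 to 179 in newborns and 129 to 155 in fetuses. On the log2 scale VIM averaged 6.66 in newborns and 6.50 in fetuses, and DCN 5.51 and 5.70, against 1.87 and 0.10 for S100A4. The sums are therefore mostly VIM and DCN, which were named after their values were seen. COL1A1 and COL1A2 are themselves among the 5 markers. The part of the markers in the collagen and MMP2 results was not tested.

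Among the matrix proteases, MMP2 was the only one of 5 tested genes that passed. MMP14, a membrane-bound protease that activates MMP2, was named after its value was seen and differed by -0.05 (SE 0.141, adjusted p = 0.821). Of the 3 tested inhibitors of matrix proteases, TIMP1 rose, TIMP3 fell and TIMP2 did not pass. TIMP3, which binds to the matrix, averaged -1.57 ± 0.427 in newborns (SD, n = 7) and -0.95 ± 0.316 in fetuses (SD, n = 6), and fell by 0.62 (SE 0.195, adjusted p = 0.0347). TIMP2, named after its value was seen, was 0.46 higher (SE 0.214, adjusted p = 0.131).

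In the list of elastic fibre genes, LTBP4 fell and the other tested gene, FBLN1, differed by 0.07 (SE 0.125, adjusted p = 0.718); it was named after its value was seen. Of 9 tested genes of the TGF-beta pathway, TGFBR2, the type II receptor, was the only one that passed. It averaged -0.66 ± 0.164 in newborns (SD, n = 7) and -1.15 ± 0.176 in fetuses (SD, n = 6), and rose by 0.48 (SE 0.106, adjusted p = 0.00584), with all 7 newborn arrays above every fetal one. TGFB1, a ligand of that receptor, differed by -0.33 (SE 0.132, adjusted p = 0.0788). It had the highest r with LTBP4 within groups of 555 genes compared, 0.75 over 13 arrays. An r picked as the highest of so many is a description only, and for MMP2 the highest was 0.89, with NOX5.

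Of 5 tested integrin genes, ITGB6, whose protein pairs with the alpha-v chain in a receptor that activates latent TGF-beta, rose by 0.74 (SE 0.243, adjusted p = 0.0419). The other 4 did not pass by their brightest probes. For ITGB5, named after its value was seen, 1 of 2 probes passed as lower in newborns. Of the 3 tested proteoglycan and hyaluronan genes and the 2 tested matricellular genes none passed. HYAL2, a hyaluronidase, had the smallest p of the first list, at 0.22 (SE 0.139, adjusted p = 0.268). CCN1, a secreted matricellular protein, had that of the second, at -0.52 (SE 0.201, adjusted p = 0.0743).

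For the remaining members the genes with the most similar pattern within groups were SSTR5 and SNAI1 for COL16A1 (r = 0.77 and 0.72), NOX5 and PAX4 for MMP2 (r = 0.89 and 0.84), and DBP and CA11 for TIMP1 (r = 0.73 and 0.67). TRPC4AP came second for LTBP4 at 0.71. Between the brightest probes of the 6 members r lay between -0.559, for COL3A1 and TIMP1, and 0.502, for COL4A1 and COL16A1.

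Markers of other cell types also moved with age, and their part in any of these results was not tested. Of 4 macrophage and monocyte markers 3 rose: FCER1G by 0.76 (adjusted p = 0.00921), CD14 by 0.66 (adjusted p = 0.0164) and FCGR1A (adjusted p = 0.000775). FCGR1A was well above background on 7 of 7 newborn but 2 of 6 fetal arrays, so the size of its difference is not given. The summed scaled signal of the 4 markers was 1.07 to 2.35 in newborns and 0.736 to 1.099 in fetuses. These sums are mostly FCER1G, which averaged 0.30 in newborns and -0.45 in fetuses on the log2 scale, against -2.54 and -3.19 for CD14. Of 2 smooth muscle markers CNN1 rose by 1.83 (adjusted p = 0.00729), and MYLK did not pass, at -0.08 (SE 0.113). The sums of both were 12.9 to 87.8 in newborns and 7.14 to 10.6 in fetuses. On the log2 scale CNN1 averaged 4.05 in newborns and 2.22 in fetuses, against 1.77 and 1.85 for MYLK. The newborn sums are therefore mostly CNN1, and their rise is that of 1 gene. CD3D (adjusted p = 0.00184) and CD3E (adjusted p = 0.00228) of T cells fell, and so did HBB (adjusted p = 0.00616) and AHSP (adjusted p = 0.0447) of red blood cells. The difference of HBB was -1.53. CD3D and AHSP were each well above background on 2 of 7 newborn and 5 of 6 fetal arrays, and CD3E on 5 of 7 newborn and 6 of 6 fetal arrays, so no size is given for these 3. WT1, the 1 tested epicardium marker, fell by 0.50 (adjusted p = 0.0297), and 1 of its 2 probes passed. Of 3 tested adipocyte markers LPL fell by 0.62 (adjusted p = 0.00737). LEP at 0.12 (adjusted p = 0.544) and PLIN1 at 0.11 (adjusted p = 0.55) did not pass. Of 2 tested skeletal muscle markers MYOD1 rose by 0.43 (adjusted p = 0.0477), and 1 of its 2 probes passed. TNNC2 did not pass, at 1.11 (SE 1.27, adjusted p = 0.551), with an SD of 2.86 in newborns and 2.34 in fetuses. MYLK, LEP, PLIN1 and TNNC2 were named after their values were seen. None of the 15 cardiomyocyte markers was found on the array by name, so the tissue label could not be checked by them.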

How the data were processed

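RNA of sheep left ventricle was hybridised to 13 Agilent arrays with 1 colour. The deposited scanner files hold spot intensity made with Agilent Feature Extraction 10.1.1.1, background-subtracted and detrended, with no normalization between arrays, per the file headers. The protocol names Cy3 and the label field Cy5, and the files hold a green channel. The authors' deposited series matrix holds log2 values, judged from the values, of 7041 probes with column medians of 8.69 to 8.70. How it was normalized is not stated in the labels, and it was an alternative.

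The 75th percentile of each array was subtracted from log2 processed signal, control spots and outlier-marked spots (0.113%) were left out, and spots of a probe were averaged. Probes well above background on at least 6 arrays were tested with limma 3.58.1 in R 4.3.3 (lmFit, eBayes, two-sided, Benjamini-Hochberg over 10257 probes, threshold 0.05), for age, for sex with age, and for their product. The brightest probe stood for a gene, and names came from the files, from RefSeq identifiers in the gene table of assembly ARS-UI_Ramb_v3.0, and for 21 probes from descriptions. Named genes are all member probes, up to 4 passing genes of a list (3 for markers) or that with the smallest p, and the 2 genes with the highest r to each member. Members and lists were chosen with earlier results of these data known. On simulated data with 10257 probes, the fit called 51% of 100 probes changed 1.5-fold, 84% of 50 changed 2-fold and 94% of 50 changed 4-fold, with 7 false calls. Far fewer probes were changed there than the 2366 that passed for age in the data. The Benjamini-Hochberg cutoff depends on that share, so these rates need not hold for this comparison. Alternatives were background correction (normexp with an offset of 50), normalization, filters, the matrix, slide, sex, replicate or animal number, eBayes settings and each array left out. Replicate numbers did not pair the samples (r -0.0707 to 0.0538). Figures were drawn with Python 3.11.15 and matplotlib 3.10.9.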

Additional observations from a re-analysis of the deposited data

Results flagged for a closer look

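Fetal 5 lay apart from the other fetal arrays on 2 of the probes described. For COL3A1 probe 4 it had a scaled signal of 1.12, against 1.67 to 1.99 on the other 5 fetal arrays, and without it the difference was -0.59 (limma, adjusted p = 0.0505). For MMP2 probe 2 it had -1.48, against -1.22 to -1.07, and without it the fall was 0.80 (adjusted p = 0.00638). These 2 were found among 24 groups examined, and chance gives about 1 in 20.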

How the results depend on the processing

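Of 10257 probes 2366 passed for age. With normexp on each spot's background 48 passed, within slide 1 356, within slide 2 23 and with the replicate number as a block 1326. Leaving out 1 array gave 1726 to 3116. Of the 12 member probes 8 passed, and 1 with normexp on each spot, 2 within slide 1, 0 within slide 2 (2072 of all probes there had an unadjusted p under 0.05) and 7 with the replicate block. Leaving out 1 array gave 7 to 8. With slide as a block in limma, 2120 of all probes and 7 of the 12 passed. In that fit the adjusted p was 0.00117 for LTBP4, 0.0192 for COL4A1, 0.00688 for MMP2 probe 2 and 0.0241 for TIMP1 probe 1. COL3A1 probe 3 did not pass there, at -0.36 (adjusted p = 0.071). The difference of COL16A1 turned to 0.0725 with normexp on the array's background, 0.0756 with sex in the model and 0.0385 with the replicate block, and ran from -0.210 to 0.0385 with 1 array left out, above 0 without fetal 1 and without newborn 7. With normexp on each spot the differences that no longer passed were -0.29 for COL3A1 probe 3, -0.56 for COL4A1, -0.29, -0.40 and -0.33 for the MMP2 probes and 0.85 and 0.84 for the TIMP1 probes. With normexp on the array's background MMP2 probes 1 and 2 fell by 0.30 (adjusted p = 0.0194) and 0.42 (adjusted p = 0.00318). In the series matrix COL4A1 fell by 0.46 (adjusted p = 0.015), and MMP2 probes 1 and 2 by 0.26 (adjusted p = 0.0101) and 0.33 (adjusted p = 0.00119). The causes were not tested. The age calls of LTBP4, COL4A1, MMP2 and TIMP1 held in each of the 13 settings that left out 1 array. Counts for sex and for age by sex were 0 member probes in each alternative run.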

Other observations

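Arrays of animals that share a number in the labels were compared by the correlation of their deviations from the group means over the tested probes. The 6 such pairs had r between -0.169 (newborn 1 and newborn 7) and 0.189 (newborn 2 and newborn 5). Subtracting a mean taken over the same arrays pulls such r below 0, so an r near 0 does not mean that paired arrays lack likeness. The correlation within an animal number that the limma block fit estimated was 0.178. With animal number as a random block, 1717 of the 10257 probes and 7 of the 12 member probes passed. In that fit LTBP4 fell by 1.24 (limma, adjusted p = 0.00296), COL4A1 by 0.77 (adjusted p = 0.037) and MMP2 probe 2 by 0.74 (adjusted p = 0.00894). MMP2 probes 1 and 3 also passed (adjusted p = 0.00901 and 0.0245). TIMP1 probe 1 rose by 0.85 (adjusted p = 0.0207). COL3A1 probe 3 did not pass, at -0.37 (adjusted p = 0.0813).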
